A study of Mus musculus with 7 samples.

Results

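The 10 genes described here encode enzymes of the pentose phosphate pathway and other main enzymes that make NADPH. They were taken by name from a list of G6pdx, Pgls, Pgd, Taldo1, Tkt, Me1, Me3, Idh1, Idh2 and Nnt. Rpia and Rpe, which also belong to the pathway, were not on that list and are given further below. All 10 were present among the 14641 genes of the table, and all 10 passed the filter on low counts. By where their enzymes work, 4 were treated as cytosolic sources of NADPH (G6pdx, Pgd, Me1 and Idh1), 3 as mitochondrial sources (Me3, Idh2 and Nnt) and 3 as pentose phosphate steps that make no NADPH themselves (Pgls, Taldo1 and Tkt). The list was not chosen by measured values, but it was proposed with results of these data known. The question was how transcripts of the cytosolic and of the mitochondrial sources compare between hearts with and without extra Nrf2.

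RNA came from whole heart lysate of male mice labelled C57BL/6J, with 1 library per mouse. A transgene of full-length mouse Nrf2, driven by the αMHC promoter and so expressed in cardiomyocytes, is carried by the 3 mNrf2-TG mice, and the 4 NTG mice are their littermates without it. The mice were 6 to 7 months old by the methods and 7 to 8 months old by the series description, and a label of 6 months is given for the mNrf2-TG mice alone. No other allele or agent is named for either group, and the libraries carry the numbers 1 to 4 in NTG and 17 to 19 in mNrf2-TG. The p-values measure the spread between the libraries of these 7 mice.

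NADPH is the electron donor that glutathione reductase, thioredoxin reductase and many other reductases use, and that fatty acid and cholesterol synthesis need. In the cytosol it comes from the oxidative steps of the pentose phosphate pathway, from malic enzyme and from isocitrate dehydrogenase. Mitochondria hold their own isozymes of the latter enzymes and a transhydrogenase, driven by the proton gradient, that passes hydride from NADH to NADP+, and the heart, which is rich in mitochondria, holds much isocitrate dehydrogenase of the mitochondrial form. Nrf2 binds, together with a small Maf protein, to antioxidant response elements, and several genes of the cytosolic NADPH supply are known targets of it in other tissues.

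Between 6534684 and 8405857 reads were counted per NTG library and between 6953122 and 8060644 per mNrf2-TG library. Nfe2l2, the gene of Nrf2, ranged over 729 to 1392 raw counts in NTG and over 10912 to 12839 in mNrf2-TG (Log2FC 3.36, SE 0.18, adjusted p = 2.96e-06 with edgeR), so the genotype labels held in all 7. One library stood apart from its group: the distance of NTG 3 to the other NTG libraries was 64.8 to 67.9 as the Euclidean distance over log2 CPM (CPM, counts scaled to an equal library total) of all genes tested, against 47.0 to 54.5 among those others, 53.0 to 58.7 within mNrf2-TG and 71.1 to 83.1 between the groups. Its summed level of smooth muscle and pericyte markers was 2362 CPM, against 1230 to 1290 in the other NTG libraries. Where a member's value rests on NTG 3, it is also given without it.

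G6pdx, Pgd and Me1 carry the core letters of the antioxidant response element near a start site, and the stretches are printed because Nrf2 is the factor that was raised in these hearts. The windows are those of RefSeq on GRCm38.p6, from 250 bases before to 50 bases after each start; they were found for 9 of the 10 members, some with more than 1 start, and not for Nnt. The letters searched were TGACNNNGC on both strands, with the match in capitals, 10 bases on each side of it and the gene's own strand throughout.
G6pdx: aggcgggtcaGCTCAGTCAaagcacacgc
Pgd: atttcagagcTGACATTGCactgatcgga
Me1: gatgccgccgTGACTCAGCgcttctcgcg
The G6pdx stretch lies at chrX:74428919-74428947, on the minus strand. Its motif is read on the opposite strand to the gene, and the first capital as printed lies 57 bases before the start. That of Pgd lies at chr4:149166061-149166089, also on the minus strand, in the window of the second start that RefSeq gives. Its motif begins at base 4, with that start counted as base 1. The Me1 stretch lies at chr9:86695902-86695930 on the minus strand, and its motif begins 6 bases before the first start. No match was found in the windows of Taldo1, Tkt, Idh1, Idh2, Me3 and Pgls. Over all genes with a window the letters were present in 14.0% of 27025 genes and in 12.4% of 32851 windows, so 3 of 9 is a description of short letters and shows no binding.

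In the mNrf2-TG hearts 5 of the 10 members rose and 0 fell at an adjusted p under 0.05 with edgeR's quasi-likelihood test. Of all 14637 genes tested, 8.48% were called higher and 8.73% lower. The members that rose were Taldo1, Pgd, Me1, Tkt and Idh1, of which 3 belong to the cytosolic sources, 2 to the pentose phosphate steps without NADPH and 0 to the mitochondrial sources. This split changed with the tool, as DESeq2 called Idh2 and not Idh1 (2 of 4 cytosolic and 1 of 3 mitochondrial sources) and limma-voom called neither (2 of 4 and 0 of 3). The median Log2FC over the 10 members was 0.46, beside 0.00 over all genes tested. At an unadjusted p under 0.05 there were 8 members higher and 0 lower, against 15.9% and 16.3% of the genes tested, and the adjusted calls were 5 higher and 0 lower with DESeq2 and 4 higher and 0 lower with limma-voom. The count was 6 higher and 0 lower without NTG 3, with Idh2 among the 6. Normalized counts of the groups did not overlap for 6 members, all higher in mNrf2-TG, against 15.0% of the genes tested (29.7% in either direction), and they overlapped for the other 4.

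**Figure D1:**
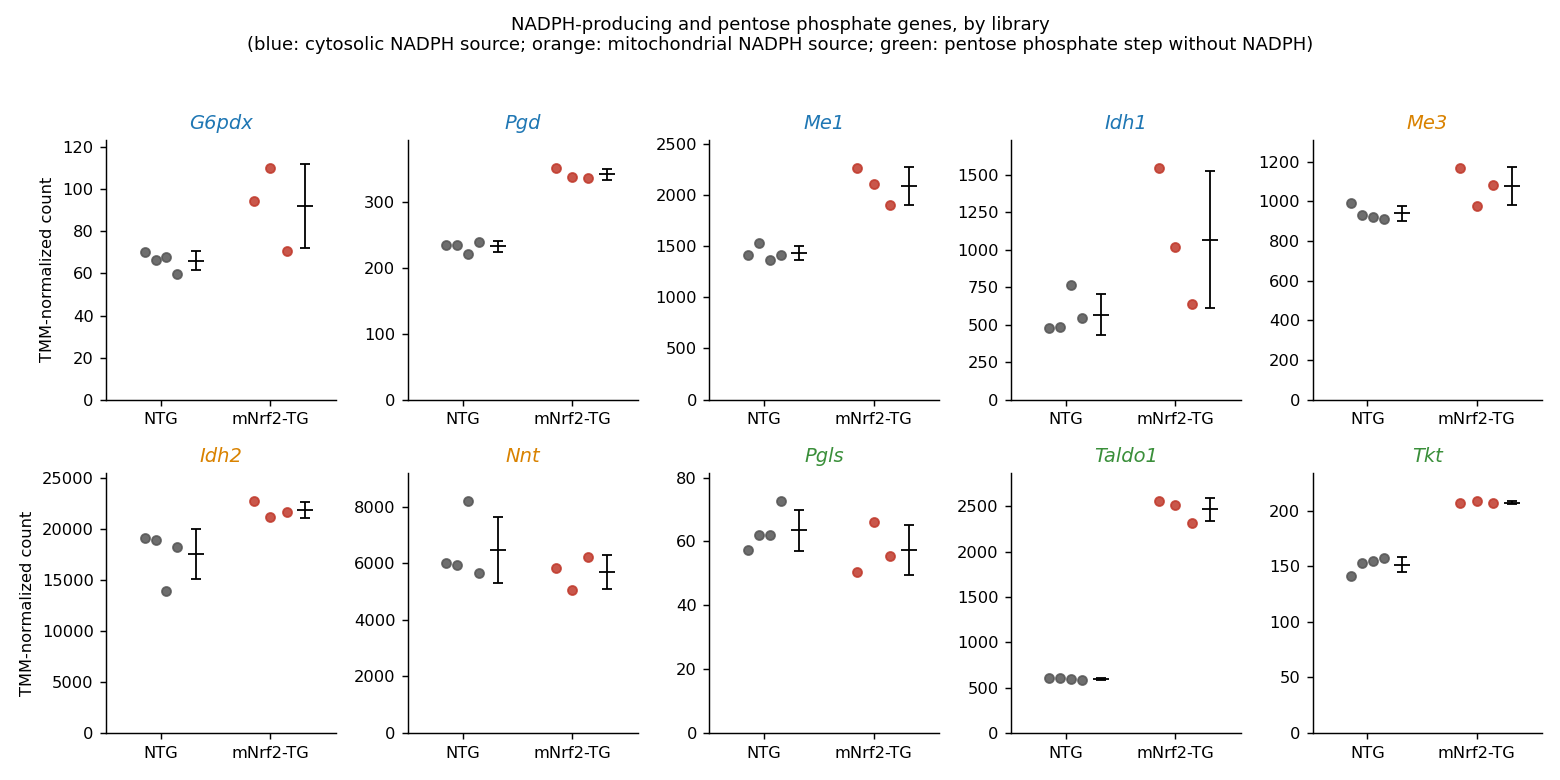
TMM-normalized count (vertical axis, from 0) of each of the 10 genes in 4 NTG libraries (grey) and 3 mNrf2-TG libraries (red), with the group mean and SD beside the points. The mNrf2-TG libraries lie from 2321 to 2560.2 for Taldo1 and the NTG libraries from 581 to 607, while the groups overlap for Idh1, Me3, Nnt and Pgls.

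G6pdx (Entrez 14381, chrX:74409483-74429194 on GRCm38, minus strand) encodes glucose-6-phosphate dehydrogenase, the rate-limiting entry enzyme of the pentose phosphate pathway and its first NADPH-making step. Its normalized counts were 70.1, 66.6, 68.1 and 59.8 in NTG 1 to 4 and 94.7, 110.4 and 70.8 in mNrf2-TG 17 to 19. The groups did not overlap, but mNrf2-TG 19 lay within 1 count of the highest NTG library. The means were 66.1 ± 4.50 (SD, n = 4) and 92.0 ± 19.9 (SD, n = 3), a Log2FC of 0.47 (SE 0.16, 95% interval 0.11 to 0.84), and the adjusted p of 0.0744 missed the threshold. Without mNrf2-TG 19 the Log2FC was 0.64 and the adjusted p 0.0275, without mNrf2-TG 18 they were 0.32 and 0.262, and without each of the other libraries the adjusted p was 0.082 to 0.179. The gene had 60 to 112 reads per library, and 16.9% of the 50-base stretches of its exons also occur in other genes, mainly Ikbkg on the opposite strand of the same place and the retrogene G6pd2, so its counts are uncertain to that extent.

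Pgd (Entrez 110208, chr4:149149991-149166771, minus strand), which encodes 6-phosphogluconate dehydrogenase, the other NADPH-making step of the pathway, rose 1.47-fold. The libraries gave normalized counts of 236, 235, 222 and 240.0 in NTG and 353, 338 and 338 in mNrf2-TG. Each mNrf2-TG library lay well above each NTG library, and the spread within both groups was small. The means were 233 ± 7.89 (SD, n = 4) and 343 ± 8.73 (SD, n = 3), a Log2FC of 0.56 (SE 0.08, 95% interval 0.39 to 0.72, adjusted p = 0.00146). Leaving out any 1 library gave a Log2FC of 0.53 to 0.57 and kept the call.

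Me1 (Entrez 17436, chr9:86581371-86695953, minus strand), the cytosolic malic enzyme that turns malate into pyruvate, rose 1.46-fold. It had normalized counts of 1414, 1536, 1369 and 1415 in NTG and 2269, 2109 and 1899 in mNrf2-TG. The groups were separate, with mNrf2-TG 19 the lowest of its group. That library was also the lowest for G6pdx, Idh1, Taldo1 and, narrowly, Pgd, and not for Tkt, Pgls, Me3, Idh2 and Nnt. The means were 1433 ± 71.6 (SD, n = 4) and 2092 ± 185 (SD, n = 3), a Log2FC of 0.55 (SE 0.08, 95% interval 0.37 to 0.72, adjusted p = 0.00198). Of the 50-base stretches of its exons 28.3% occur in other genes, mainly Gm7049, Gm48795 and Gm7329 at other places in the genome, and reads from those could have been counted on Me1 or lost from it.

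Idh1 (Entrez 15926, chr1:65158616-65186500, minus strand), the cytosolic and peroxisomal isocitrate dehydrogenase, had the widest spread of the members. Its normalized counts were 477, 484, 763 and 547 in NTG and 1549, 1021 and 636 in mNrf2-TG. The groups overlapped, because NTG 3 was the highest NTG library and lay above mNrf2-TG 19. The coefficient of variation was 42.9% in mNrf2-TG and 23.6% in NTG. The means were 568 ± 134 (SD, n = 4) and 1068 ± 458 (SD, n = 3), a Log2FC of 0.91 (SE 0.26, 95% interval 0.33 to 1.49), and the adjusted p of 0.0395 passed the threshold narrowly. Without NTG 3 the Log2FC was 1.08 (adjusted p = 0.0122), but the call was lost in 5 of the 7 fits that left out 1 library, those without NTG 1, NTG 2, NTG 4, mNrf2-TG 17 or mNrf2-TG 18 (adjusted p 0.0773 to 0.162), with the lowest Log2FC, 0.54, without mNrf2-TG 17. It was also lost with DESeq2 (adjusted p = 0.0573) and with limma-voom (adjusted p = 0.0558). No 50-base stretch of its exons occurs in another gene.

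**Figure D2:**
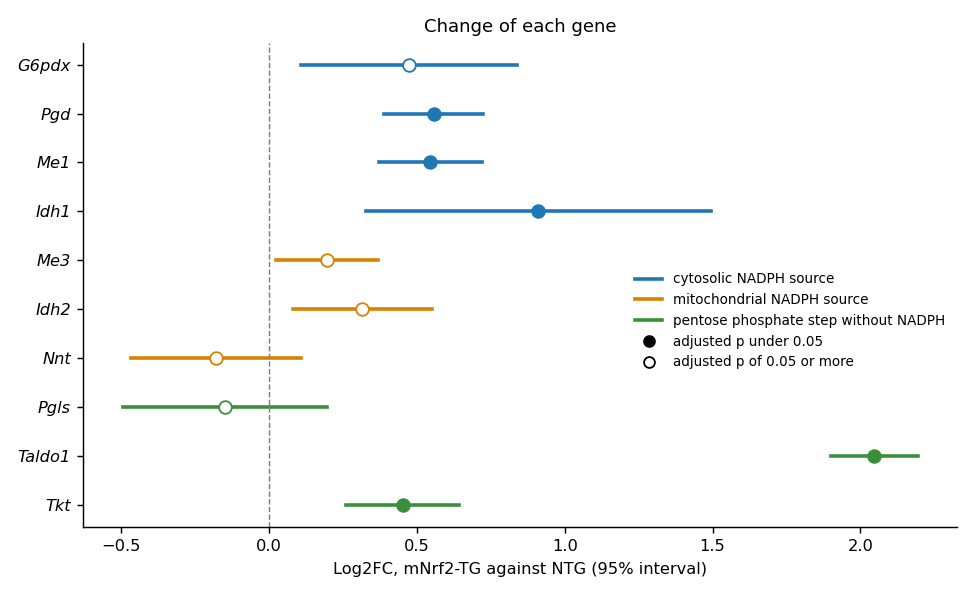
Log2FC of mNrf2-TG against NTG (horizontal axis) for the 10 genes, with 95% intervals as lines, coloured by cytosolic source, mitochondrial source or pentose phosphate step without NADPH, and filled where the adjusted p was under 0.05. Taldo1 stands apart at 2.05, Pgd, Me1, Tkt and Idh1 are filled between 0.45 and 0.91, and the mitochondrial sources, at -0.18 to 0.32, are open.

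Taldo1 (Entrez 21351, chr7:141392199-141402968, plus strand) showed the largest change of the 10. It encodes transaldolase, a reversible step of the non-oxidative branch that links pentose phosphates to glycolysis and so lets carbon return to glucose 6-phosphate. In normalized counts the libraries gave 605, 607, 595 and 581 in NTG and 2560.2, 2521 and 2321 in mNrf2-TG. The NTG libraries agreed closely, and every mNrf2-TG library was far above them. The means were 597 ± 11.9 (SD, n = 4) and 2467 ± 128 (SD, n = 3), a 4.13-fold difference (Log2FC 2.05, SE 0.07, 95% interval 1.90 to 2.19, adjusted p = 5.67e-08). Leaving out any 1 library gave a Log2FC of 2.02 to 2.09. Of its 50-base exon stretches 6.67% recur elsewhere, in Gm17823.

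Tkt (Entrez 21881, chr14:30548359-30574720, plus strand) encodes transketolase, the thiamine-dependent partner of transaldolase in the same branch. Normalized counts were 141, 153, 155 and 157 in NTG and 207, 209 and 207 in mNrf2-TG, again without overlap. The mNrf2-TG libraries were nearly equal. The means were 152 ± 7.04 (SD, n = 4) and 208 ± 1.23 (SD, n = 3), a 1.37-fold difference (Log2FC 0.45, SE 0.09, 95% interval 0.26 to 0.64, adjusted p = 0.00771), and the call held without each library in turn.

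Pgls (Entrez 66171, chr8:71592176-71601092, plus strand), which encodes the lactonase between the steps of G6pdx and Pgd, was not called. Its normalized counts were 57.5, 62.1, 61.9 and 72.7 in NTG and 50.6, 66.0 and 55.4 in mNrf2-TG, and the ranges overlapped. The means were 63.5 ± 6.47 (SD, n = 4) and 57.3 ± 7.90 (SD, n = 3), a Log2FC of -0.15 (SE 0.15, 95% interval -0.49 to 0.20, adjusted p = 0.554). At 47 to 73 reads per library this interval leaves room for a fall or a small rise. Pgls shares 776 exon bases with Fam129c on the same strand, and 18.9% of its 50-base exon stretches recur there, so reads could have been split between the genes.

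Among the mitochondrial sources, Idh2 (Entrez 269951, chr7:80094846-80115392, minus strand) was the most abundant transcript per length. It encodes the mitochondrial NADP-dependent isocitrate dehydrogenase, a main NADPH source of heart mitochondria. Its normalized counts were 19117, 18954.5, 13869 and 18248 in NTG and 22738, 21143 and 21631 in mNrf2-TG. The groups did not overlap, and NTG 3 lay far below the other NTG libraries. The means were 17547 ± 2481 (SD, n = 4) and 21838 ± 817 (SD, n = 3), a Log2FC of 0.32 (SE 0.11, 95% interval 0.08 to 0.55), and the adjusted p of 0.0657 missed the threshold. Without NTG 3 the Log2FC was smaller, 0.22, and passed (adjusted p = 0.0276), and with DESeq2 on all libraries it was 0.32 (adjusted p = 0.0441). It did not pass with limma-voom (adjusted p = 0.0567) or without any 1 of the other 6 libraries (adjusted p 0.0808 to 0.181).

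Me3 (Entrez 109264, chr7:89632392-89854359, plus strand), the mitochondrial NADP-dependent malic enzyme, had normalized counts of 993, 933, 920 and 912 in NTG and 1169.8, 976 and 1083 in mNrf2-TG. The mNrf2-TG 18 library lay below NTG 1, so the groups overlapped. The means were 939 ± 36.8 (SD, n = 4) and 1076 ± 97.3 (SD, n = 3), a Log2FC of 0.20 (SE 0.08, 95% interval 0.02 to 0.37, adjusted p = 0.112). Me3 shares 569 exon bases with the antisense gene A230065N10Rik, and the sources used here do not say whether strand was used in counting.

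Nnt (Entrez 18115, chr13:119335448-119408997, minus strand), the nicotinamide nucleotide transhydrogenase of the inner mitochondrial membrane, had normalized counts of 6018, 5951, 8200.4 and 5659 in NTG and 5846, 5037 and 6221 in mNrf2-TG. The groups overlapped, and NTG 3 was the highest library, opposite to its place for Idh2. The means were 6457 ± 1173 (SD, n = 4) and 5701 ± 605 (SD, n = 3), a Log2FC of -0.18 (SE 0.13, 95% interval -0.47 to 0.11, adjusted p = 0.374), and without NTG 3 the Log2FC was -0.044 (adjusted p = 0.754). Mice of the C57BL/6J substrain are known to carry a deletion of internal Nnt exons that leaves no working protein; the counts are per gene and do not show which exons were read. GENCODE M21 holds a second record of Nnt at the same place with 3339 shared exon bases, and 47.0% of the 50-base stretches of the gene recur, mainly in that record.

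The paired isozymes allow a contrast within each library that does not depend on the scaling between libraries. For malic enzyme the log2 ratio of Me1 to Me3 counts was 0.51, 0.72, 0.57 and 0.63 in NTG and 0.96, 1.11 and 0.81 in mNrf2-TG, so each mNrf2-TG heart had relatively more of the cytosolic form. The means were 0.61 ± 0.09 (SD, n = 4) and 0.96 ± 0.15 (SD, n = 3), a difference of 0.35 or 1.28-fold. The exact two-sided permutation test over the 35 assignments of the libraries gave p = 0.0286, the smallest that this design allows, and 0.0571 after Benjamini-Hochberg adjustment over the 2 ratios.

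For isocitrate dehydrogenase the log2 ratio of Idh1 to Idh2 was -5.32, -5.29, -4.18 and -5.06 in NTG and -3.88, -4.37 and -5.09 in mNrf2-TG. NTG 3 fell among the mNrf2-TG libraries and mNrf2-TG 19 among the NTG libraries. The means were -4.96 ± 0.53 (SD, n = 4) and -4.45 ± 0.61 (SD, n = 3), and the difference of 0.52 did not exceed the spread (exact permutation p = 0.257, adjusted p = 0.257). Without NTG 3 the difference was 0.78 (exact permutation p = 0.2), and without mNrf2-TG 17 it was 0.23 (exact permutation p = 0.733). The counts of calls per compartment changed with the tool and in each fit that left out 1 library. Cytosolic calls were 2 of 4 without NTG 1, NTG 2, NTG 4, mNrf2-TG 17 or mNrf2-TG 18, and 4 of 4 without mNrf2-TG 19. Without NTG 3 they were 3 of 4, with 1 of 3 mitochondrial sources called. Such counts are no test of the compartments. The tests made were those of the 2 ratios, which leave out G6pdx, Pgd and Nnt.

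**Figure D3:**
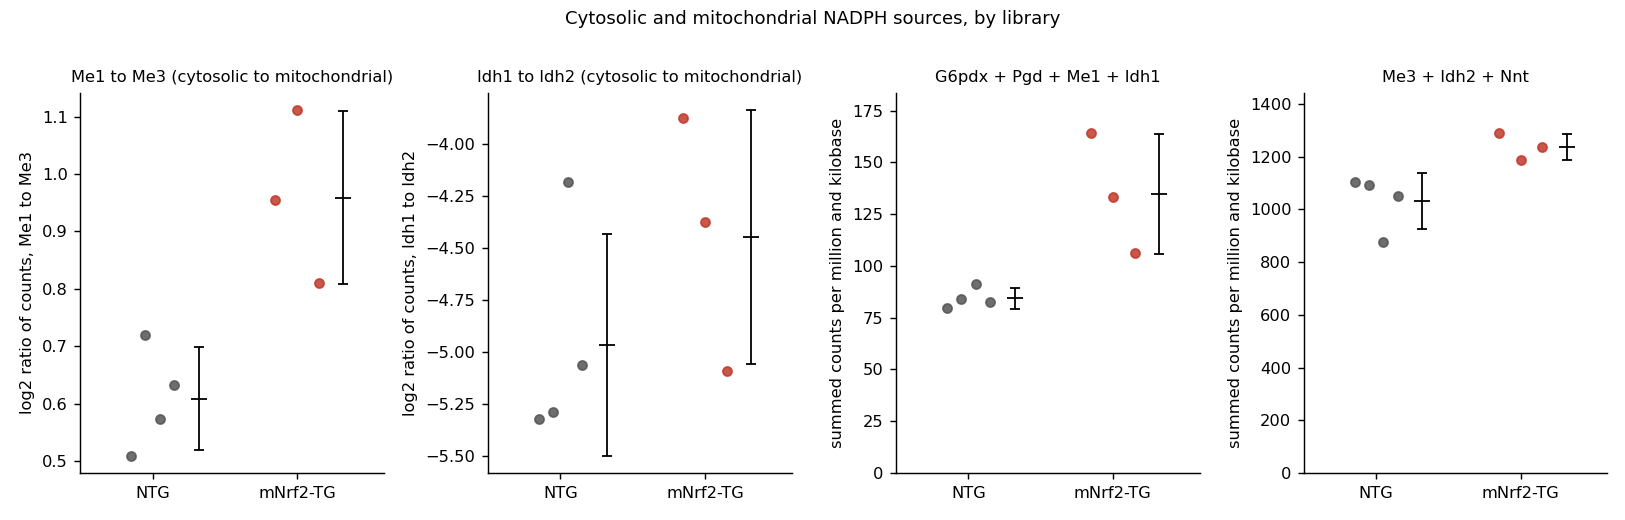
From left to right, the log2 ratio of Me1 to Me3 counts, the log2 ratio of Idh1 to Idh2 counts, and the summed level of the cytosolic and of the mitochondrial sources in CPM per kilobase, for 4 NTG (grey) and 3 mNrf2-TG (red) libraries with mean and SD. The Me1 to Me3 ratios of the groups are separate, at 0.51 to 0.72 and 0.81 to 1.11, those of Idh1 to Idh2 overlap, and both sums are higher in each mNrf2-TG library.

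Levels of different genes were compared in CPM per kilobase of exon. In NTG hearts the order was Idh2 (901 ± 127, SD, n = 4), Nnt (122 ± 22.1), Me1 (49.5 ± 2.47), Taldo1 (36.5 ± 0.729), Idh1 (27.2 ± 6.42), Me3 (8.53 ± 0.334), Pgd (4.80 ± 0.162), G6pdx (2.85 ± 0.194), Tkt (2.74 ± 0.127) and Pgls (2.24 ± 0.228). The ranges of Taldo1 and Idh1, of G6pdx and Tkt, and of Tkt and Pgls overlapped, so these neighbours were not separated. The pentose phosphate transcripts other than Taldo1 thus lay at the bottom of the order and those of mitochondrial isocitrate dehydrogenase at its top.

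In mNrf2-TG hearts Taldo1 moved up to the second place, at 151 ± 7.83 (SD, n = 3), above Nnt at 108 ± 11.4 and below Idh2 at 1121 ± 42.0. Me1 followed at 72.2 ± 6.39 and overlapped with Idh1 at 51.2 ± 22.0. The order of Me3 (9.78 ± 0.884), Pgd (7.07 ± 0.180), G6pdx (3.97 ± 0.859), Tkt (3.75 ± 0.0222) and Pgls (2.02 ± 0.279) was that of NTG, with G6pdx and Tkt overlapping. The length used matters for part of this order. With the length of the principal transcript in place of all exons, Taldo1 (64.5) stood above Me1 (57.9) in NTG. G6pdx was then the lowest gene of both groups (3.31 and 4.61), and Pgls (9.45) stood above Tkt (6.25) in NTG. By that length Me3 stood at 27.8 in NTG and overlapped with Idh1, and Pgd stood at 14.0 in NTG and 20.5 in mNrf2-TG.

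**Figure D4:**
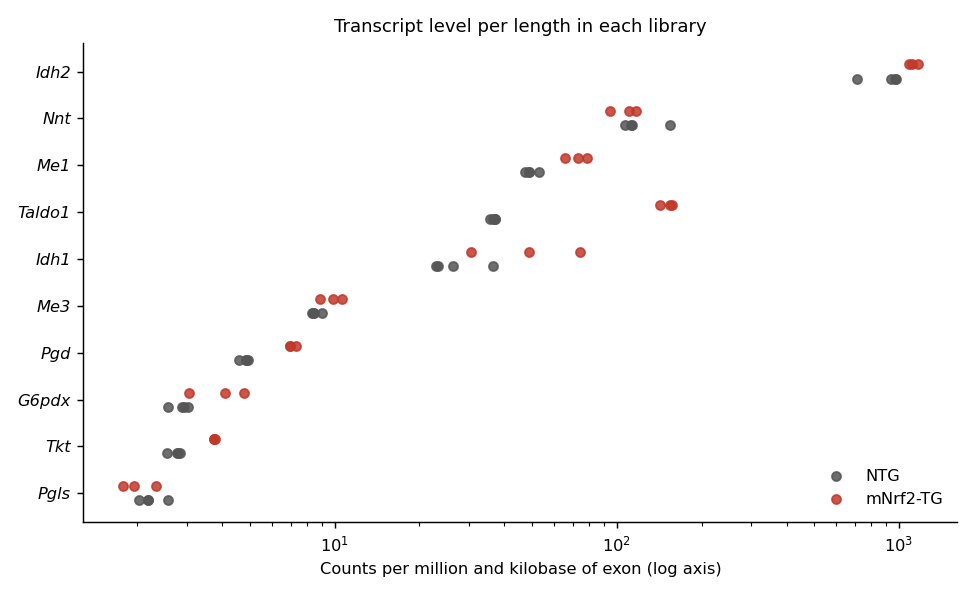
Level of each of the 10 genes in CPM per kilobase of exon (horizontal log axis) in 4 NTG (grey) and 3 mNrf2-TG (red) libraries, ordered by the NTG mean. Idh2 lies highest in both groups, at 901 and 1121, the pentose phosphate genes other than Taldo1 lie under 10 on this scale of all exons, and Taldo1 goes from 36.5 to 151.

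Summed over the 4 cytosolic sources, the level was 79.6, 83.9, 91.3 and 82.6 CPM per kilobase in NTG and 163.9, 133 and 106 in mNrf2-TG. Each mNrf2-TG library was above each NTG library, with mNrf2-TG 19 nearest to them. Me1 and Idh1 made up most of this sum, since G6pdx and Pgd averaged 2.85 and 4.80 in NTG and 3.97 and 7.07 in mNrf2-TG. Idh1, the member with the widest spread, stood at 74.2, 48.9 and 30.5 in mNrf2-TG 17 to 19. The 3 mitochondrial sources summed to 1104, 1094, 875 and 1052 in NTG and 1288, 1189 and 1238 in mNrf2-TG, also without overlap, and NTG 3 was the lowest. With the principal transcript lengths the mean mitochondrial sums were 1611 and 1913 in place of 1031 and 1238. Idh2 alone made up 82.6% to 82.9% of both compartments together in NTG 1, 2 and 4, 73.7% in NTG 3 and 80.4% to 82.6% in mNrf2-TG, so the mitochondrial sum follows this 1 gene.

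The cytosolic share of the summed level was 6.72%, 7.13%, 9.45% and 7.28% in NTG and 11.3%, 10.1% and 7.89% in mNrf2-TG. The share of NTG 3 lay above that of mNrf2-TG 19, and without NTG 3 the groups did not overlap. With the principal transcript lengths the shares were lower, 5.63% to 7.67% in NTG and 6.68% to 9.42% in mNrf2-TG, with the same overlap. All 10 members together took 0.388%, 0.383%, 0.337% and 0.371% of the counts of the NTG libraries and 0.492%, 0.446% and 0.471% of those of the mNrf2-TG libraries.

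Other genes that make, supply or use NADPH were read from 8 lists with 102 genes, of which 96 were measured. Of these 19 rose and 5 fell, with a median Log2FC of 0.11, where 8.48% and 8.73% of all genes tested did. Without NTG 1 or mNrf2-TG 18 there were 2 that fell, and without NTG 2, mNrf2-TG 17 or mNrf2-TG 19 there were 3. The nearest relatives of the members had no call: of 10 measured relatives of the pentose phosphate pathway, 5 dehydrogenases related to the members and 8 folate enzymes, edgeR called 0, DESeq2 called 0 and limma-voom called 0, and at an unadjusted p under 0.05 there were 0, 0 and 1. Leaving out NTG 2 or mNrf2-TG 18 gave 1 call among the folate enzymes, and leaving out NTG 3 gave 1 among the related dehydrogenases. H6pd, which carries out the first oxidative step inside the endoplasmic reticulum, had 488 ± 86.7 (SD, n = 4) and 471 ± 28.7 (SD, n = 3) normalized counts (Log2FC -0.05, adjusted p = 0.823).

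Rpia and Rpe, counted above among the relatives, encode enzymes of the pathway itself that interconvert the pentose phosphates between Pgd and Tkt. Their Log2FC values were -0.18 (SE 0.12, adjusted p = 0.342) and 0.05 (SE 0.11, adjusted p = 0.806). Me2, the mitochondrial malic enzyme that mainly uses NAD+, had a Log2FC of 0.30 (SE 0.13, adjusted p = 0.157, and 0.0407 without NTG 3). Mthfd2, a mitochondrial folate dehydrogenase, was low, at 28.0 and 24.8 mean normalized counts, with a Log2FC of -0.17 (SE 0.24, adjusted p = 0.672). Tigar, a phosphatase that can turn glucose from glycolysis to the pentose phosphate pathway, had a Log2FC of -0.14 (SE 0.08, adjusted p = 0.249).

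NAD kinases make NADP+ from NAD+, 1 enzyme in each compartment, and the difference between their changes was not tested. Nadk2, the mitochondrial NAD kinase, rose from 747 ± 92.6 (SD, n = 4) to 1772 ± 76.7 (SD, n = 3) normalized counts (Log2FC 1.25, SE 0.10, adjusted p = 5.09e-05). The NTG libraries lay from 623 to 839.8 and the mNrf2-TG libraries from 1709.6 to 1857, without overlap. Nadk, the cytosolic kinase, had means of 318 and 342.5 (Log2FC 0.11, SE 0.09, adjusted p = 0.437). Nmrk2, the nicotinamide riboside kinase of muscle, rose from 52.6 ± 15.7 (SD, n = 4) to 175 ± 79.7 (SD, n = 3), with a Log2FC of 1.72 (SE 0.30, adjusted p = 0.00537), and mNrf2-TG 17 was the highest library at 264. These were the 2 of 10 measured genes of NAD and NADP synthesis that rose, and 0 fell with edgeR at the adjusted threshold, 1 at an unadjusted p under 0.05, and 1 each with DESeq2 and limma-voom.

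Among 22 reductases that use NADPH, 8 rose and 0 fell, with a median Log2FC of 0.34, and without mNrf2-TG 19 there were 5 calls in place of 8. At an unadjusted p under 0.05 edgeR gave 11 higher and 1 lower, and the adjusted calls were 7 and 0 with DESeq2 and 8 and 0 with limma-voom. Nqo1, a quinone reductase that is a standard Nrf2 target, changed most, from 528 ± 59.9 (SD, n = 4) to 5132 ± 303 (SD, n = 3) normalized counts (Log2FC 3.28, SE 0.10, adjusted p = 2.86e-08). Txnrd1, the cytosolic thioredoxin reductase, had a Log2FC of 2.61 (SE 0.16), Blvrb, a biliverdin and flavin reductase, one of 2.31 (SE 0.09), and Gsr, glutathione reductase, one of 1.58 (SE 0.12). Txnrd1, Gsr, Nqo1 and Blvrb, like Me1, were each lowest of the mNrf2-TG libraries in mNrf2-TG 19. Txnrd1 and Gsr stood there at 2490.3 and 518 against 3984 to 4010 and 687 to 689.8. Nqo1 and Blvrb stood at 4879 and 496 against 5048 to 5468 and 513 to 521. The other reductases that rose were Akr1a1, Cbr1, Txnrd2 and Ptgr1, with Log2FC values of 0.39, 0.37, 0.32 and 0.84.

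Of the other consumers, 1 of 10 genes of lipid synthesis rose, Dhcr7 of the cholesterol pathway (Log2FC 0.74, SE 0.15, adjusted p = 0.00934). Over all genes tested 8.48% rose and 8.73% fell, so 1 of 10 is near the share of all genes. Of 6 measured NADPH oxidases and nitric oxide synthases 1 rose and 1 fell. Cybb, the catalytic subunit of the phagocyte oxidase, had a Log2FC of 1.62 (SE 0.31, adjusted p = 0.00718), with normalized counts of 129, 264 and 103 in mNrf2-TG and 44.8 to 65.7 in NTG. Macrophage markers, which summed to 296.7 to 373.1 CPM in NTG and 551.7, 653.7 and 474.5 in mNrf2-TG, rose beside it in 7 of 10 cases, and their part in its level was not tested. Nos3, the endothelial nitric oxide synthase, fell by 0.46 (SE 0.09, adjusted p = 0.00956), and it shares 1040 exon bases with the antisense gene Gm15587.

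Of 25 genes for glucose entry and for the shuttles that feed malate and isocitrate to the members, 7 rose and 4 fell, with a median Log2FC of 0.03. These 11 calls were 5 without NTG 1 or mNrf2-TG 19 and 6 without NTG 2, mNrf2-TG 17 or mNrf2-TG 18. Pcx, pyruvate carboxylase, rose (Log2FC 0.79, SE 0.13, adjusted p = 0.00366), as did the hexokinase Hk1 (0.72, SE 0.13, adjusted p = 0.00681) and the phosphofructokinase Pfkp (0.68, SE 0.14, adjusted p = 0.0115). Slc2a1, the glucose transporter GLUT1, was called at a Log2FC of 0.85 (SE 0.26, adjusted p = 0.0471), but its groups overlapped through NTG 3 at 129 normalized counts, against 54.8 to 68.4 in the other NTG libraries, and of the 7 fits that left out 1 library the call held in that without NTG 3 alone (adjusted p = 0.00081, against 0.0725 to 0.151 in the others). Pfkp lost its call without mNrf2-TG 17 (adjusted p = 0.0537) and shares 748 exon bases with Pitrm1 on the opposite strand. Gpi1, Slc25a11 and the low-count Hk3 also rose, and genes that fell included Hk2, Cs and Got1, by 0.32, 0.21 and 0.29.

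**Figure D5:**
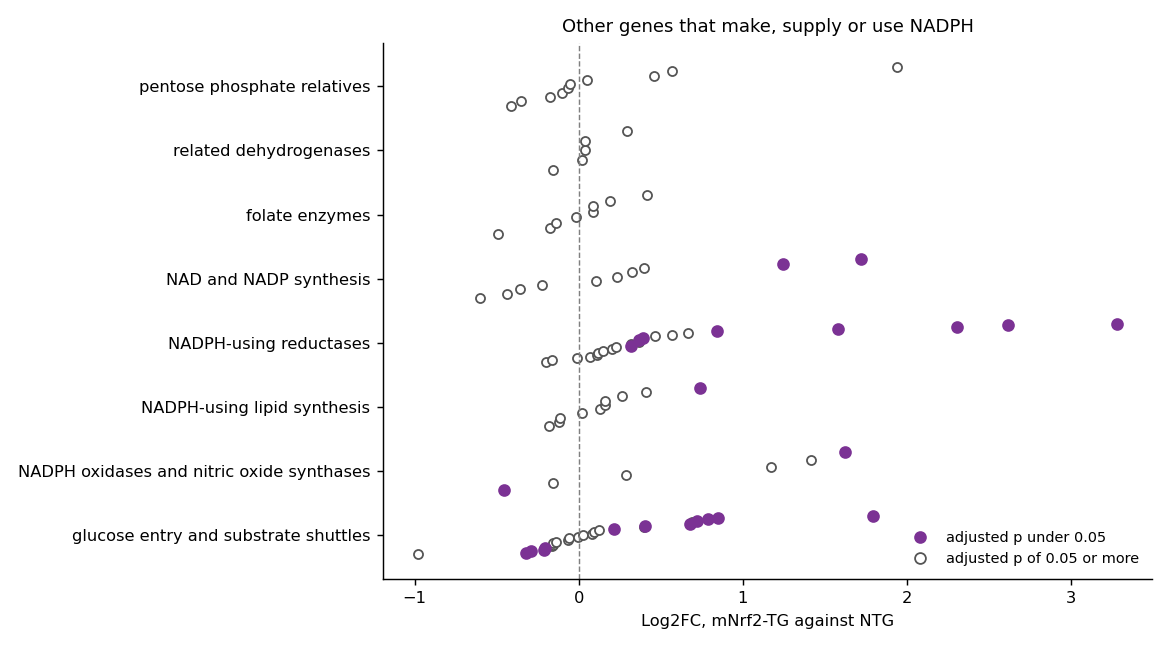
Log2FC of mNrf2-TG against NTG (horizontal axis) of the 96 measured genes of 8 lists around NADPH, 1 point per gene, filled where the adjusted p was under 0.05. Filled points reach 3.28 among the NADPH-using reductases, and the first 3 lists have none.

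The libraries were made from whole heart lysate, in which fewer cells of a type and less RNA per cell cannot be told apart. Markers of cardiomyocytes were abundant, as the tissue label says, at a summed 90330 to 104200 CPM in NTG and 76620 to 82060 in mNrf2-TG. With edgeR 0 of these 10 were higher and 4 lower, where 8.48% and 8.73% of all genes tested were. At an unadjusted p under 0.05 there were 0 higher and 7 lower, and the adjusted calls were 0 and 5 with DESeq2 and with limma-voom. Macrophage markers moved the other way, at 296.7 to 373.1 and 474.5 to 653.7, with 7 of 10 higher, and so did fibroblast markers, at 1296 to 1686 and 1850 to 1960, with 6 of 10 higher. Endothelial markers summed to 1618 to 1980 and 1518 to 1567, with 1 of 10 higher and 3 lower, and Nos3 fell beside them. The part of these shifts in the members' values was not tested.

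Smooth muscle and pericyte markers (1230 to 2362 and 1736 to 2220 CPM, 1 of 9 lower), red blood cell markers (314.6 to 506.1 and 200.3 to 465.0, 0 of 6 called) and skeletal muscle markers (86.3 to 165.9 and 57.8 to 89.3, 2 of 8 lower) overlapped between the groups, the first of them through NTG 3 alone, since the other NTG libraries lay at 1230 to 1290. Adipocyte markers summed to 670.7 to 944.4 and 643.7 to 666.2 with 0 of 5 measured called, and the defining markers Adipoq and Plin1 averaged 0.99 and 0.51 normalized counts in NTG and 1.84 and 1.59 in mNrf2-TG, near 0. Fabp4, at 5457 and 4561 normalized counts, makes up most of that sum and also stands in the endothelial list. With edgeR at an unadjusted p under 0.05, 0 higher and 1 lower were found for the adipocyte and for the red blood cell markers each. There DESeq2 called 0 and 1 lower and limma-voom 0 of either. Among smooth muscle and pericyte markers limma-voom called 1 higher and 1 lower, and DESeq2 called 0 higher and 1 lower.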

How the data were processed

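Poly(A) RNA was sequenced as single 50-base reads on an Illumina instrument from stranded libraries. The authors aligned the reads with Novoalign 2.08.01 to chromosome and splice junction sequences made with Ensembl build 67 and deposited raw counts per gene, without normalization. The labels name mm10 (GRCm38) and DESeq2 1.32.0, and the methods also name hg19 once. The counting program and its use of strand are not given in the sources used here. The deposited rlog values and the authors' own comparison, which holds log2 fold changes and p-values, were not used.

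The table held 14665 entries; 24 repeats of a gene were removed, and the 14637 genes with a summed count above 1 were tested. Groups came from the genotype labels. They were compared in edgeR 4.0.16 (R 4.3.3; TMM, quasi-likelihood, no covariates), with Benjamini-Hochberg adjustment over all genes tested and a threshold of 0.05. SE is the absolute Log2FC divided by the root of F. Normalized counts are counts divided by effective library size and scaled to its mean. Isozyme ratios used counts plus 0.5. Lengths, positions and shared 50-base stretches came from GENCODE M21 (GRCm38), and promoter windows from RefSeq. The test was tried on simulated counts of 14637 genes, 200 of them with a true Log2FC of size 1, up or down. Of those 95% were found, and 5.47% of the calls were false. The changed genes were drawn from those with higher mean counts. Smaller changes, like those of most members, were not simulated.

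Members, lists and tests were chosen with earlier results of these data known. Named are the 10 members, Nfe2l2, H6pd, Rpia, Rpe, Me2, Mthfd2, Nadk, Nadk2, Gsr, Txnrd1, Nqo1 and Tigar, and up to 4 called genes per list, by absolute Log2FC, with a mean count of 10 or more. Further called genes were named after their values were seen, and some are not reported here. Alternatives were DESeq2 1.42.0, limma-voom (limma 3.58.1), DESeq2 size factors, the library total alone, other filters on low counts (filterByExpr, at least 10 counts in every library of 1 group, none), no pseudocount and leaving out each library. The principal transcript's length was added after the data were seen. Tables and exact tests were made in Python 3.11.15 (pandas 2.3.3, numpy 2.4.6, scipy 1.17.1) and plots in matplotlib 3.10.9.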

Additional observations from a re-analysis of the deposited data

Results flagged for a closer look

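A library that lay far from the rest of its group was looked for by Dixon's criterion in the NTG groups of 4 libraries; the mNrf2-TG groups of 3 were too small for it. Of 35 groups of values screened, 2 held such a library, and about 1 in 20 is found by chance. Both were NTG 3. Its normalized count of Idh2 was 13868.8, below 18248 to 19117 in the other NTG libraries. Its normalized count of Nnt was 8200.43, above 5659 to 6018 in the others. NTG 3 is also the library that stood apart over all genes.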

How the results depend on the processing

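Over the 7 fits that each left out 1 library, the Log2FC was 0.32 to 0.64 for G6pdx, 0.54 to 1.18 for Idh1, 0.22 to 0.37 for Idh2, 0.48 to 0.61 for Me1, 0.13 to 0.26 for Me3 and -0.24 to -0.04 for Nnt. Of genes not called it was -0.26 to -0.069 for Pgls, 0.038 to 0.17 for Nadk, -0.30 to -0.040 for Mthfd2 and -0.17 to -0.082 for Tigar. Members called higher were 4 to 6 and lower 0. Genes called over the whole table were 1373 to 2950 (704 to 1471 higher and 669 to 1479 lower), with fewer libraries in each fit, the lowest count without mNrf2-TG 17 and the highest without NTG 3. In the 8 lists 13 to 21 genes rose and 2 to 6 fell. The Me1 to Me3 difference was 0.27 to 0.42, with an exact permutation p of 0.0667 to 0.1, and with 6 libraries that test cannot pass 0.05; the Idh1 to Idh2 difference was 0.23 to 0.84. H6pd ranged from -0.13 to 0.068, above 0 without NTG 2, and Rpe from -0.030 to 0.10, below 0 without mNrf2-TG 19, and neither was called. The mean cytosolic sum ranged over 82.0 to 86.0 CPM per kilobase in NTG and over 119.8 to 149 in mNrf2-TG, and the mitochondrial sum 1007 to 1083 and 1213 to 1263.

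Idh1 lost its call with DESeq2 (0.91) and limma-voom (0.84), and Idh2 gained one with DESeq2 (0.32); the cause was not tested. With the library total alone 3 genes of the lists fell in place of 5. With principal transcript lengths the mean sums were 107.9 and 171.3 for cytosolic sources and 1611 and 1913 for mitochondrial sources, in place of 84.4, 134.5, 1031 and 1238. Of 434 recomputed Log2FC values of members and named genes, 414 kept their direction and side of the threshold, 14 lost a call (Idh1 7, Slc2a1 6 and Pfkp 1), 4 gained one and 2 turned.

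No paired analysis was possible because the groups share no replicate number. Pgls and G6pdx had few reads, 47 to 112 per library, and the part of depth in their results was not tested.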
